A study of Homo sapiens with 8 samples.

Results

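Genes that mark epithelial and pancreatic duct cells were followed through the acetylation lists: KRT8, KRT18, KRT19, CLDN4, ESRP2, MUC1, SOX9 and FOXA1. They were chosen by name, and their regions are the H3K9ac peaks annotated to them, 16 of 27467 in the series, and the H3K27ac peaks centred within 2 kb of any of these, 24 of 29582. The 8 genes are among 12186 that had at least 1 H3K9ac peak under their name. All libraries came from MIA PaCa-2, an established line of human pancreatic tumour cells, grown as spheroids in a hyaluronan (Glycosil) gel cross-linked with Extralink (PEGDA). Stromal gels also held Gelin-S, a collagen-derived component, and were fed low-serum medium conditioned by immortalized myofibroblasts that had been grown out of resected human pancreatic tumours. Astromal gels had degassed water in its place and were fed low-serum DMEM. The myofibroblasts themselves were not added to the gels, and the gel component and the conditioned medium differ together, so their parts cannot be told apart. Chromatin immunoprecipitation and sequencing gave 1 library per mark and condition, so no difference has a replicate check and none has a p-value.

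Acetylation of histone H3 at lysine 9 (H3K9ac) and lysine 27 (H3K27ac) marks active promoters, and H3K27ac also marks active enhancers. Both acetyl groups tend to flank the transcription start site (TSS), where nucleosomes are displaced, so a peak often lies to either side of it rather than on it. Keratins 8, 18 and 19 are the filament proteins of simple epithelia, with keratin 19 typical of ducts. CLDN4 (a claudin) and MUC1 (a transmembrane mucin) belong to the junctions and the apical surface, and ESRP2 (a splicing regulator), SOX9 and FOXA1 (transcription factors) keep the epithelial or ductal programme. MIA PaCa-2 is known as a poorly differentiated line with mesenchymal traits.

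Start sites with unlike acetylation are shown by their upstream sequence: CLDN4, where the peaks of the conditions lay apart, FOXA1, with H3K9ac in a single list and no H3K27ac nearby, and MUC1, where both marks were in both lists. Promoter sequences were at hand for 4 of the 8 genes. The 250 bases before the start are given 5′ to 3′ on the gene's strand, from build GRCh38.p14, with capitals for GC boxes (GGGCGG or CCGCCC), E-boxes (CACCTG or CAGGTG, letters that the ZEB and SNAI repressors of epithelial genes bind) and a TATA box (TATAAA, read on the gene's strand).
CLDN4: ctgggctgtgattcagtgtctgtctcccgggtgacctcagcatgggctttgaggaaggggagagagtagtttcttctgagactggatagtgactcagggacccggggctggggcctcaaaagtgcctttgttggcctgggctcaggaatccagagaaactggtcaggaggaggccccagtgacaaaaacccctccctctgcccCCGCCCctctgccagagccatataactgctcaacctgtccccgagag
FOXA1: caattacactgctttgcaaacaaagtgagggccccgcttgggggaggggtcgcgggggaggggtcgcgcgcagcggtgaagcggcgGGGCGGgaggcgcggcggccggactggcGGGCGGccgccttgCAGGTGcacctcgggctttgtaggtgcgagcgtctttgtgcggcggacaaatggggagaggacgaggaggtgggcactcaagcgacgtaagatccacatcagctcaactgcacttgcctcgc
MUC1: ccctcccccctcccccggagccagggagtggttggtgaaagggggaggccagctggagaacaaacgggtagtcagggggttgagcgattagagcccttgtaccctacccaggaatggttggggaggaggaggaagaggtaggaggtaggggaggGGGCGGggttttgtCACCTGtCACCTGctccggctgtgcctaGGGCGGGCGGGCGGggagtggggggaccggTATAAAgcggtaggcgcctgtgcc
The windows are chr7:73830746-73830995 on the plus strand for CLDN4, chr14:37595250-37595499 on the minus strand for FOXA1 and chr1:155192916-155193165 on the minus strand for MUC1. CLDN4 held 4 CpG in its window, FOXA1 26 and MUC1 11, where the median over 35116 RefSeq promoters was 11. FOXA1 had 1 E-box, its first base 122 bases before the start, and MUC1 had 2, at 82 and 75 bases, and CLDN4 had no match to these letters. Of all promoters of the same length, 17.5% held an E-box, 42.6% a GC box and 6.8% a TATA box. MUC1 alone of the 3 had the TATA box, 24 bases before the start, and its 4 GC box matches include 3 that overlap each other. These letters are a description and say nothing of what was bound. The peaks themselves are given in build hg19 and were not placed on these windows.

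Depth and list length set what could be seen. The stromal H3K9ac library held about 7569604 tags and the astromal one 3925277, both estimated from the values. For H3K27ac the deposited totals were 17190695 stromal and 13453902 astromal tags. Levels are the deposited tags per peak, per 10000000 tags of the library, summed over a gene's peaks where a gene is given. Across all genes with peaks in both lists the median log2 ratio of summed H3K9ac, stromal over astromal, was 0.99 (5706 genes), and that of summed H3K27ac was −0.17 (7964 genes). Ratios below are therefore given relative to those medians ("centred"), with exact 95% Clopper-Pearson intervals that cover counting error only.

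By list, H3K9ac was found at KRT8, KRT19 and FOXA1 in the stromal library only, at SOX9 in the astromal library only, and at KRT18, CLDN4, ESRP2 and MUC1 in both. That is 3 of 8 genes stromal only, where 52.2% of all genes were so, 1 of 8 astromal only (background 0.935%) and 4 of 8 in both (background 46.8%). H3K27ac within 2 kb was in both lists at KRT8, KRT18, KRT19, ESRP2 and MUC1, 5 of 8 genes against 65.4% of all genes. CLDN4 and SOX9 had it in the astromal list alone (2 of 8, background 7.64%), and 0 of 8 genes in the stromal list alone (background 5.2%). FOXA1 had no H3K27ac in either list (1 of 8, background 21.8%). So, counted within 2 kb, the 3 genes with stromal-only H3K9ac did not have stromal-only H3K27ac. When overlap with an H3K9ac peak was asked for, KRT19 did, with 16.3 normalised tags in the stromal list. With so few genes these counts are a description, and absence from a list means that no peak was called, not that no tags were there.

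**Figure D1:**
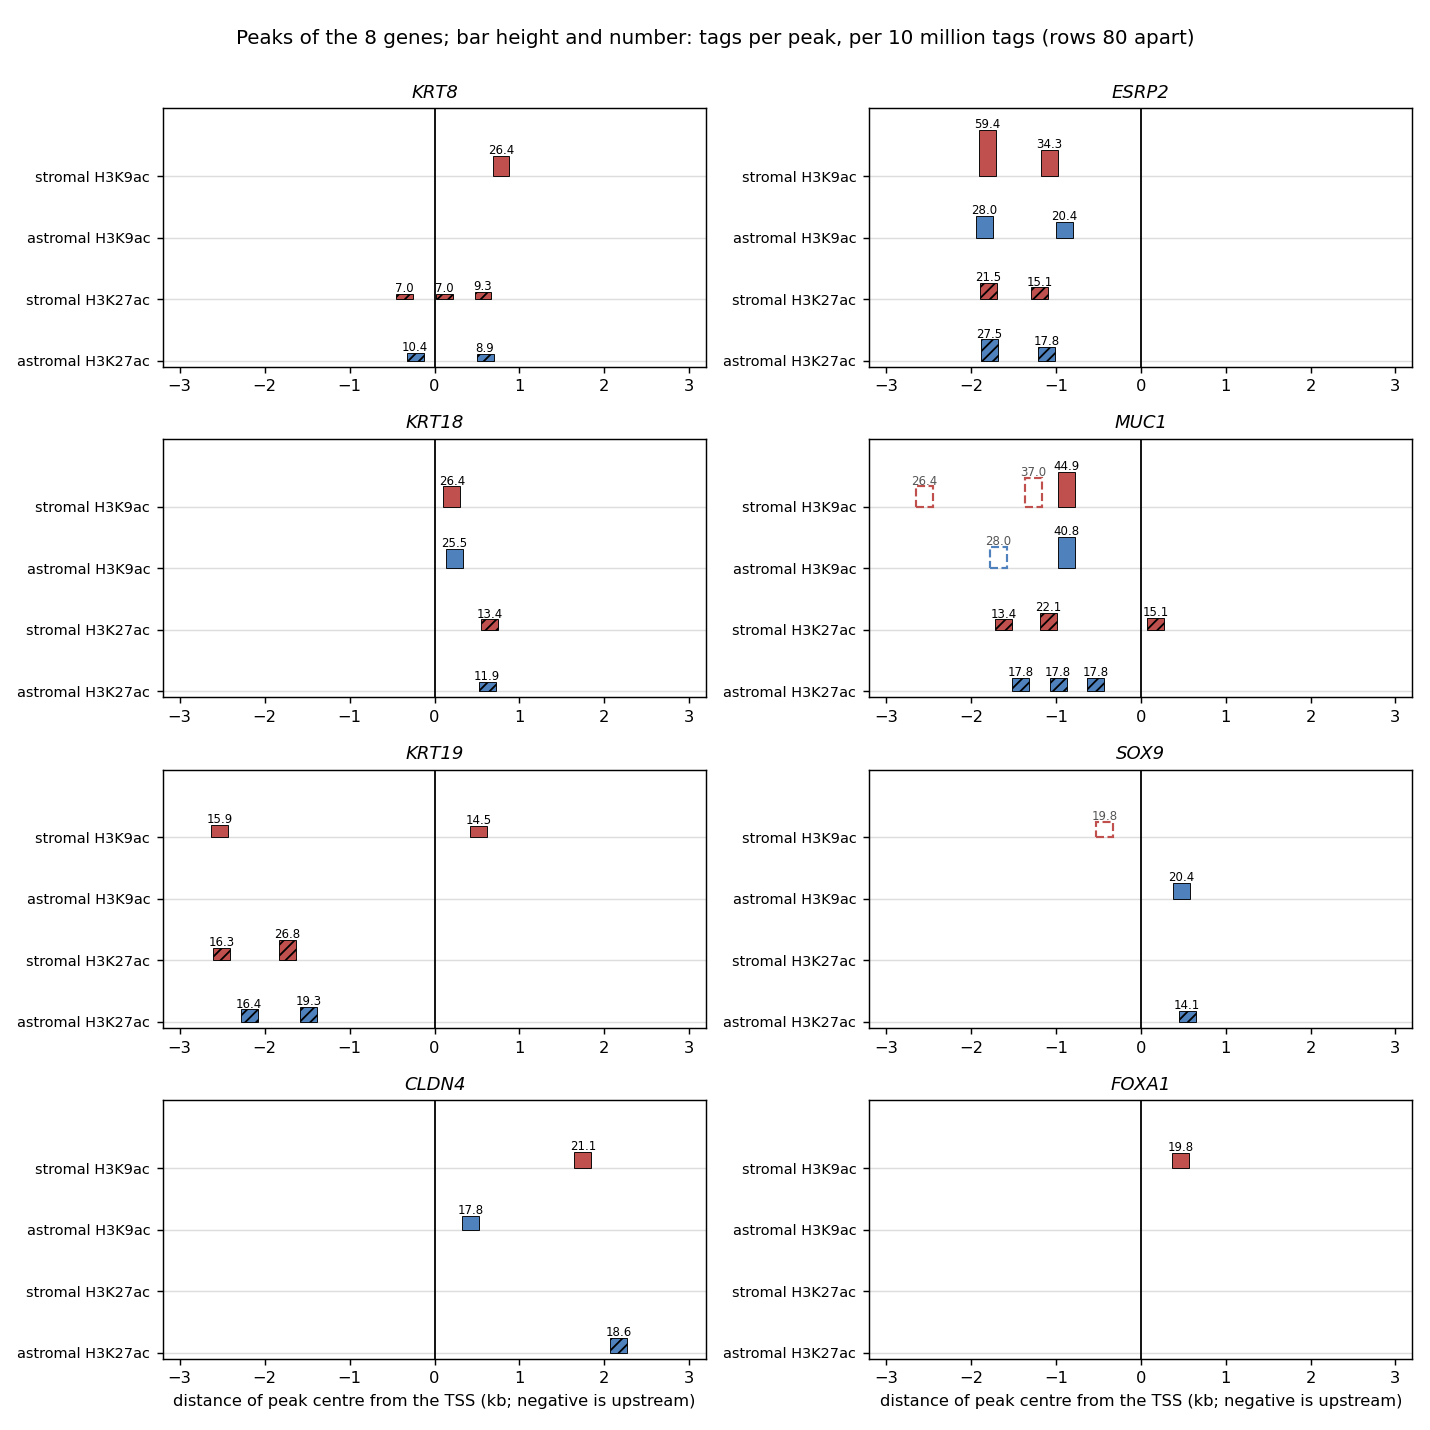
Peaks of the 8 genes by the distance of their centre from the TSS (kb, negative is upstream), in rows for stromal and astromal H3K9ac (plain bars) and stromal and astromal H3K27ac (hatched bars); bar height and the number above it are tags per 10000000. Dashed bars are H3K9ac peaks annotated to a neighbouring gene, SOX9-AS1 beside SOX9 and MIR92B beside MUC1, and the KRT8 peaks about 26 kb downstream lie outside the plot; the bars of ESRP2 stand at nearly the same 2 places in all 4 rows, whereas those of CLDN4 do not share a place.

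Among the keratins, KRT18 carried nearly the same H3K9ac level in both conditions. KRT18 had 26.4 normalised tags (20 tags) in the stromal library and 25.5 (10 tags) in the astromal library, each in 1 peak within exon 1. The stromal peak lay at chr12:53342942-53343152, 204 bases past the TSS, and the astromal peak overlapped it with its centre 26 bases away. The centred log2 ratio was −0.93 (−2.10 to 0.33), lower than that of most genes. Of all genes with peaks in both lists 6.06% had a lower one, but its interval includes 0. Sums also count the number of peaks, and KRT18 had 1 in each list. By the highest peak of each gene alone, the centred ratio was −0.62. H3K27ac at KRT18 stood further into the gene, 651 bases past the TSS with 13.4 normalised tags in the stromal library and 619 bases with 11.9 in the astromal one. Its centred ratio was 0.34 (−0.65 to 1.36), so neither mark differed beyond counting error.

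KRT8, which encodes the partner of keratin 18 and lies on the same chromosome with its TSS 44.0 kb away, had H3K9ac peaks in the stromal list only. Its promoter-side peak, in intron 1 at chr12:53297980-53298190, held 26.4 normalised tags (20 tags), the level of KRT18 in that library. A second stromal peak of 14.5 (11 tags) lay in intergenic sequence 25783 bases downstream of the TSS. At the same levels the astromal library would have held 10.4 and 5.7 tags, and its list reaches down to peaks of 5 tags. At levels lower by the median ratio of summed tags over all genes it would have held 5.2 and 2.9 tags. These are at and under that floor. Sums also count the number of peaks per gene, so that ratio may be too large for a single peak. Whether the absence of an astromal peak at KRT8 differs from the median gene is thus not shown either way. No astromal H3K9ac peak lay closer than 44988 bases to it, the one at KRT18. H3K27ac, in contrast, was called on both sides of the KRT8 start in both conditions. The stromal library had peaks of 9.31, 6.98 and 6.98 normalised tags there and 1 of 9.31 beside the distant H3K9ac peak, and the astromal library had peaks of 10.4 and 8.92. The sums were 32.6 stromal and 19.3 astromal, a centred log2 ratio of 0.92 (0.23 to 1.65), short of 2-fold. Without the distant peak the sums were 23.3 stromal and 19.3 astromal and the ratio 0.44 (−0.31 to 1.21), and by the highest peak it was 0.04. The larger sum thus came with more stromal peaks, not with a higher one.

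KRT19 had 2 stromal H3K9ac peaks, both weak. The peak in exon 1 (chr17:39684019-39684229, 517 bases past the TSS) held 14.5 normalised tags (11 tags), and the intergenic peak 2530 bases upstream held 15.9 (12 tags). They were higher than only 7.05% and 12% of peaks in their list. At the same level the astromal library would have held 5.7 and 6.2 tags, close to its smallest peaks of 5. At levels lower by the median ratio of summed tags it would have held 2.9 and 3.2, with the same limit as for KRT8. KRT19 had the strongest H3K27ac of the 3 keratin genes, all of it upstream. The stromal peaks held 26.8 and 16.3 normalised tags, centred 1737 and 2510 bases upstream, and the astromal peaks held 19.3 and 16.4, centred 1486 and 2184 bases upstream. No stromal peak overlapped an astromal one, with gaps between nearest centres of 251 and 326 bases. The sums of 43.1 stromal and 35.7 astromal gave a centred ratio of 0.44 (−0.10 to 0.99). If H3K27ac was counted within 1 kb of an H3K9ac peak, the taller astromal peak, 1044 bases from the nearest H3K9ac centre, dropped out. The ratio then became 1.57, past 2-fold. That of KRT8 became 1.69, with 25.6 stromal (its distant peak included) and 8.92 astromal. Its taller astromal peak of 10.4, 1010 bases away, dropped out, as did a stromal peak of 6.98, 1135 bases away. Both genes had H3K9ac peaks in the stromal list only, so these windows were placed by stromal peaks alone.

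RefSeq lists 52 symbols of KRT8 pseudogenes, 68 of KRT18 and 5 of KRT19, and how reads that match several copies were placed is not given in the sources used here. The tags of these genes are uncertain to that extent.

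**Figure D2:**
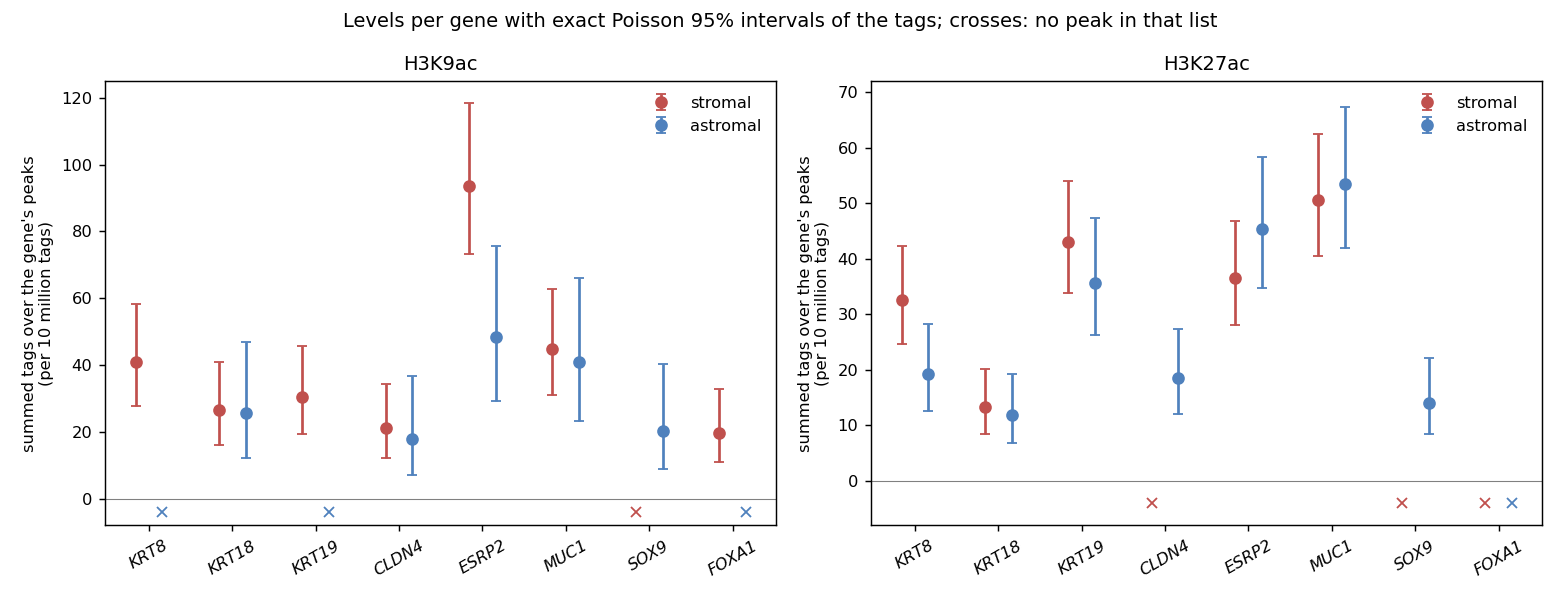
Summed tags per gene (per 10000000 tags) for H3K9ac on the left and H3K27ac on the right, with stromal points left of astromal points and exact Poisson 95% intervals of the tags; crosses below 0 stand for no peak in that list. In H3K9ac the points of KRT18, CLDN4 and MUC1 lie close together, and those of ESRP2 stand at 93.7 stromal and 48.4 astromal with intervals that just overlap.

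At the cell surface, MUC1 carried both marks in both conditions. Its H3K9ac peak stood at the same place, chr1:155163475-155163685 in the stromal list, with 44.9 normalised tags (34 tags) stromal and 40.8 (16 tags) astromal. In the astromal list 95.2% of peaks were lower and in the stromal list 88.5%. The peak lay 874 bases upstream of the annotated start, in a promoter by the deposited annotation. The centred ratio was −0.85 (−1.74 to 0.11), which counting error does not separate from 0, and −0.53 by the highest peak. MUC1 H3K27ac came as 3 peaks in each list with sums of 50.6 stromal and 53.4 astromal, a centred ratio of 0.09 (−0.38 to 0.56). The placement of the 3 was unlike: stromal peaks of 22.1, 15.1 and 13.4 normalised tags were centred 1089 bases upstream, 176 bases downstream and 1614 bases upstream of the TSS. The astromal peaks, each of 17.8, were centred 974, 528 and 1412 bases upstream. The stromal peak just past the start was 704 bases from the nearest astromal one, centre to centre, and 1 of the 3 stromal peaks overlapped an astromal one. Required to be at least 5-fold over the surrounding 10 kb, MUC1 kept 22.1 normalised tags in the stromal list and 53.4 in the astromal list.

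CLDN4, which seals tight junctions, had H3K9ac in both lists but not at the same site. The stromal peak lay at the transcript's end, chr7:73246836-73247046, 1748 bases past the TSS, with 21.1 normalised tags (16 tags). The astromal peak lay nearer the start, in the single exon at chr7:73245519-73245719, 426 bases past the TSS, with 17.8 (7 tags). The centres were 1322 bases apart, so the ratio of −0.74 (−2.10 to 0.78), or −0.43 by the highest peak, compares different sites. The astromal peak was among the weakest of its list, where 4.72% were lower. H3K27ac was called in the astromal library only, at chr7:73247261-73247457 with 18.6 normalised tags (25 tags), 15.22-fold over input but 4.88-fold over the surrounding 10 kb, where 4-fold was required. The nearest stromal H3K27ac peak was 8166 bases from a CLDN4 peak. When at least 5-fold over the surroundings was asked for, CLDN4 had H3K27ac in neither list.

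Of the regulators, ESRP2 had the highest H3K9ac, with H3K27ac at or near its peaks in both conditions. Its H3K9ac stood in 2 upstream peaks in each list. The stromal peaks held 59.4 and 34.3 normalised tags (45 and 26 tags), and the astromal peaks held 28.0 and 20.4 (11 and 8 tags). The stronger one (chr16:68271835-68272045 in the stromal list, 1804 bases upstream) was higher than 97.4% of stromal peaks, and each stromal peak overlapped its astromal counterpart. The summed level was 93.7 stromal and 48.4 astromal, 1.94-fold, and its uncentred log2 ratio of 0.95 had an interval above 0 (0.21 to 1.77). Relative to all genes with peaks in both lists the ratio was −0.03 (−0.78 to 0.78), with 48.2% of them lower, close to the median gene. By the highest peak it was 0.41. Within the stromal condition the H3K27ac centres lay 14 and 120 bases from the nearest H3K9ac centre and both pairs overlapped. Within the astromal condition they lay 51 and 209 bases away, and the H3K9ac peak nearer the start was not overlapped by H3K27ac. H3K27ac held 21.5 and 15.1 normalised tags stromal, and 27.5 and 17.8 astromal, a centred ratio of −0.14 (−0.67 to 0.39). If H3K9ac was counted within 1 kb of the TSS, ESRP2 appeared in the astromal list only, since its nearer stromal peak lay 1073 bases upstream and the astromal one 897 bases upstream.

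SOX9, the transcription factor of duct cells, was the single gene of the 8 with both marks in the astromal library only. Its H3K9ac peak at chr17:70117536-70117736, 475 bases past the TSS, held 20.4 normalised tags (8 tags), and its H3K27ac peak, centred 72 bases from it, held 14.1 (19 tags) at 46.28-fold over input. At that H3K9ac level the stromal library would have held 15.4 tags, above its smallest peaks of 8. At a level higher by the median ratio of summed tags it would have held 30.6. The stromal library did have an H3K9ac peak 904 bases away, on the other side of the start, but under the name of the antisense gene SOX9-AS1. It held 19.8 normalised tags (15 tags), at chr17:70116627-70116837. Taken by place instead of name, H3K9ac was in both lists at SOX9, and no gene of the 8 was then astromal only (0.205% of all genes were). The nearest stromal H3K27ac peak was 5666 bases from the SOX9 peak.

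FOXA1, a factor that opens chromatin, had a single H3K9ac peak, in the stromal list, at chr14:38063746-38063956 in intron 1, 474 bases past the TSS. It held 19.8 normalised tags (15 tags), with 26.4% of stromal peaks lower, and 7.8 tags would have been found at that level in the astromal library. At a level lower by the median ratio of summed tags 3.9 tags would have been found, under the smallest astromal peak of 5. That ratio may be too large for a single peak, but the depth does not show FOXA1 to differ from the median gene. No H3K27ac peak of either library lay nearer than about 396.5 kb. FOXA1 was thus the gene with H3K9ac farthest from any H3K27ac among the 8.

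**Figure D3:**
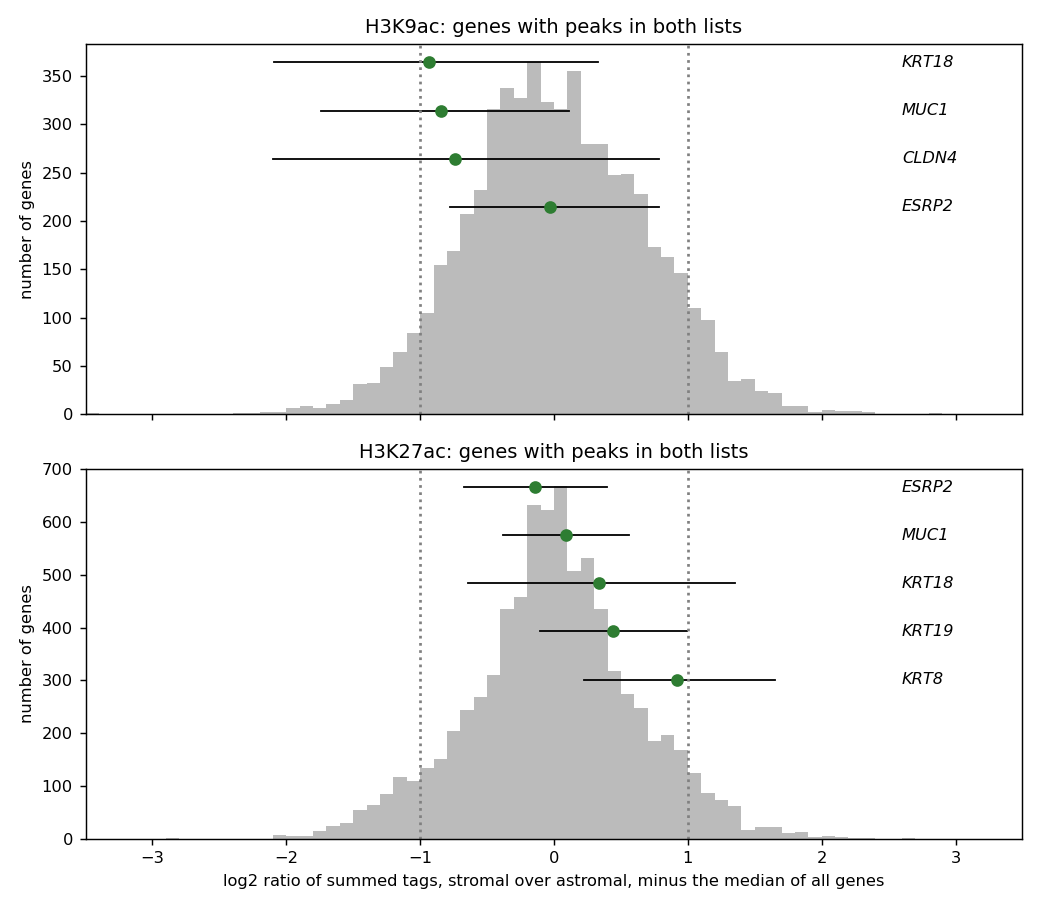
Log2 ratios of summed tags, stromal over astromal, minus the median of all genes: grey bars count all genes with peaks in both lists, green points are the genes named, black lines their 95% counting intervals and dotted lines mark 2-fold. For H3K9ac the points of KRT18, MUC1 and CLDN4 lie left of 0 with intervals that include it, and for H3K27ac only the KRT8 interval leaves out 0.

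No gene of the 8 passed 2-fold after centring when peaks were gathered by gene name and, for H3K27ac, within 2 kb. In H3K9ac 0 of 4 genes with peaks in both lists were at least 2-fold higher and 0 of 4 lower. Of all genes with peaks in both lists, 7.31% and 5.57% were. Their median centred ratio was −0.79, beside a median of 0 for all genes by construction. The raw ratios of KRT18 (0.05), MUC1 (0.14), CLDN4 (0.25) and ESRP2 (0.95) were all above 0. By the highest peak in place of sums, their centred ratios were −0.62, −0.53, −0.43 and 0.41 in that order. In H3K27ac 0 of 5 were higher and 0 of 5 lower (background 5.64% and 6.52% of genes with H3K27ac in both lists), and the median centred ratio was 0.34. The genes with stromal-only or astromal-only peaks have no ratio and are not in these medians. Other ways of gathering peaks did move calls. With H3K9ac peaks of any gene name within 2 kb, KRT18 (−1.05, with its own peaks and a changed median of all genes) and SOX9 (−1.14) were past 2-fold lower. So were 6.48% of the genes then in both lists. With H3K27ac peaks at least 5-fold over the surrounding 10 kb, KRT19 was past 2-fold higher at 1.34 and MUC1 past 2-fold lower at −1.09. So were 5.82% and 6.79% of the genes then in both lists.

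Within each condition the marks were set side by side by place, since levels of 2 antibodies share no scale. In the stromal libraries 5 of 7 genes with H3K9ac had an H3K27ac peak within 2 kb of it (background 70.4%), the exceptions being CLDN4 and FOXA1. In the astromal libraries all 5 of 5 genes with H3K9ac did (background 88.8%). Of single H3K9ac peaks, 4 of 10 stromal and 3 of 6 astromal were overlapped by H3K27ac of the same condition (background 39.9% and 59.7%). Between conditions, 4 of 10 stromal H3K9ac peaks (background 26.6%) and 4 of 6 astromal ones (background 75.8%) overlapped each other, those of KRT18, ESRP2 and MUC1. For H3K27ac 6 of 12 stromal and 6 of 12 astromal peaks did (background 58.4% and 60.8%).

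Other epithelial genes were read from a list of 87, of which 26 had an H3K9ac peak under their name. Genes that define epithelial cells, among them CDH1, EPCAM, KRT7, ESRP1 and GRHL2, had no row under their names in the H3K9ac lists. H3K27ac was counted only near named H3K9ac peaks, so it was not examined at these genes. H3K9ac under a neighbour's name was not looked for either. Of the 26, 23 had H3K9ac in the stromal list only (88.5%, where 52.2% of all genes were so), 3 in both (background 46.8%) and 0 in the astromal list only (background 0.935%). EHF, an epithelial ETS factor, had 137.4 normalised tags (104 tags) in the stromal list, ITGB4, the hemidesmosome integrin, had 88.5, and OCLN, the tight junction protein occludin, had 77.9. KLF4, a factor of epithelial barriers, had 91.1 stromal and 17.8 astromal (69 and 7 tags), a centred ratio of 1.37 (0.25 to 2.74). It was the 1 gene past 2-fold higher of the 3 that had a ratio (background 7.31% of genes with peaks in both lists). Of these 26 genes, 7 had H3K27ac in both lists (background 65.4%), 1 in the stromal list alone (5.2%), 1 in the astromal list alone (7.64%) and 17 in neither (21.8%). More of them were without H3K27ac than of all genes, a count over a list that was chosen with earlier results known. GATA4, a factor of endodermal tissues, had 6.4 normalised tags of H3K27ac in the stromal list only, whereas TP63, the factor of basal epithelia, had 26.8 in the astromal list only. At EHF H3K27ac was 54.2 stromal and 66.1 astromal, a centred ratio of −0.12 (−0.56 to 0.31). At ITGB4 it was 52.3 stromal and 59.4 astromal, a centred ratio of −0.02 (−0.47 to 0.44).

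**Figure D4:**
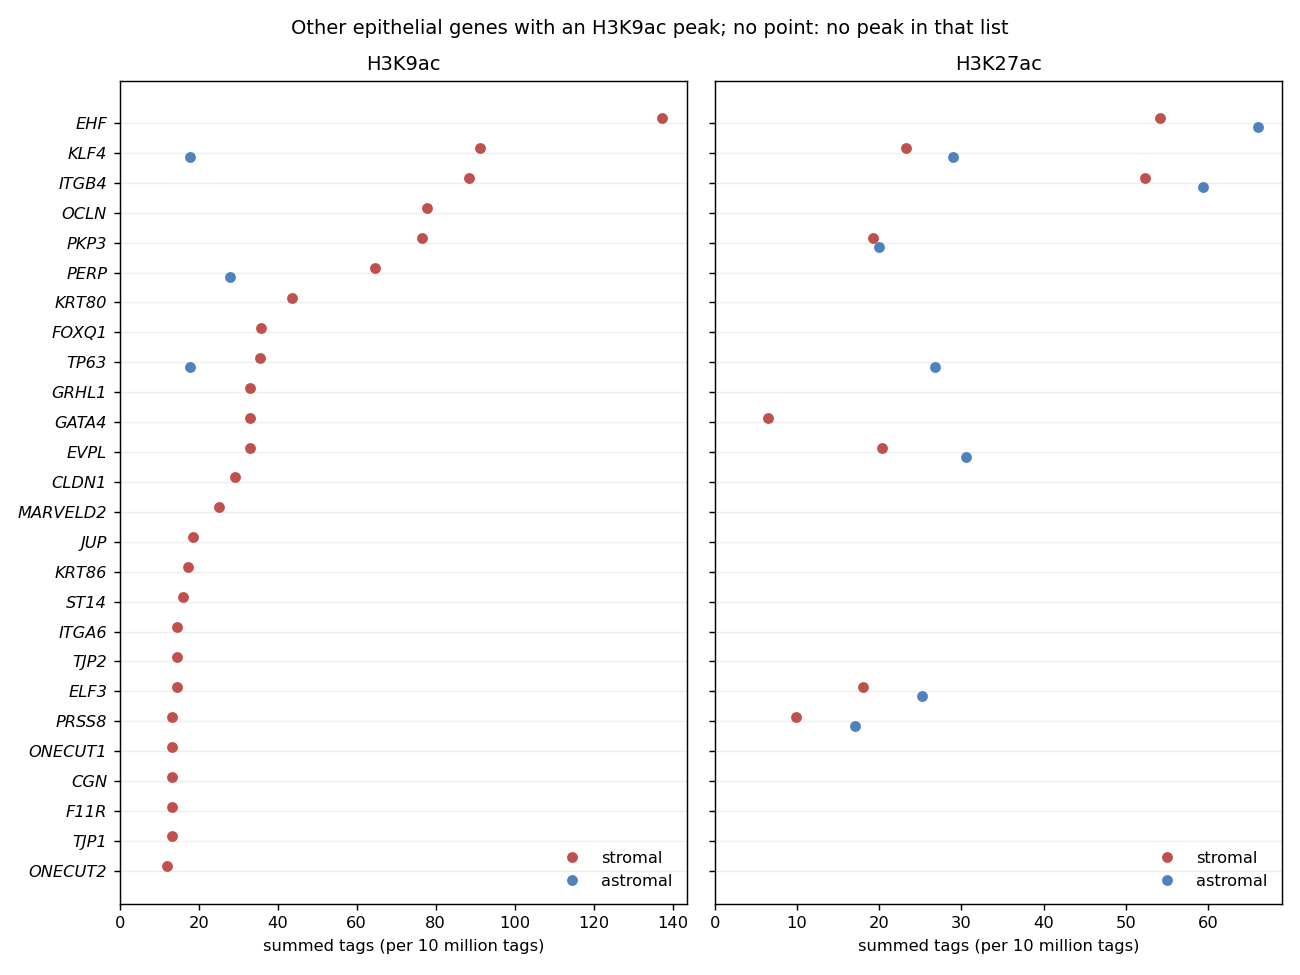
Summed tags (per 10000000 tags) of the 26 other epithelial genes with an H3K9ac peak, ordered by stromal H3K9ac; stromal points are drawn above astromal ones on each line, and no point means no peak in that list. H3K9ac points are almost all stromal, led by EHF at 137.4, whereas most genes with H3K27ac have points of both conditions.

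Markers of other cell types were checked in the same way. Of 12 mesenchymal genes 3 had H3K9ac, all in the stromal list only (background 52.2%), with VIM (vimentin) at 92.5 normalised tags, SNAI1 at 75.3 and FOXC2 at 18.5. VIM also had H3K27ac in the stromal list only, at 20.4. SNAI1 had 11.6 stromal and 17.1 astromal, a centred ratio of −0.39 (−1.33 to 0.54). Of 14 fibroblast genes 4 had H3K9ac, all stromal only against the same background, which were COL1A2 at 111.0, ACTA2 at 29.0, PDGFRA at 23.8 and COL1A1 at 17.2. COL1A2 had H3K27ac of 67.5 stromal and 89.2 astromal, a centred ratio of −0.23 (−0.62 to 0.15), and the other 3 had none within 2 kb. The summed H3K9ac of the fibroblast list was 181.0 stromal and 0 astromal, and that of the mesenchymal list 186.3 stromal and 0 astromal. DCN, LUM and PDGFRB had no row under their names in the H3K9ac lists, and H3K27ac was not examined at them. Of 8 endocrine genes PAX6 had H3K9ac, with 51.5 in the stromal list only, and of 10 acinar and 6 immune genes 0 had any. The part of other cell types in the results at KRT8, KRT19 and FOXA1 was not tested. The stromal-only pattern of H3K9ac in these lists went with a stromal library that had 1.93 times the depth and 5.81% of its tags in peaks, against 1.76% in the astromal library, and the part of depth in it was not tested.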

How the data were processed

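The submitters' processing notes name CASAVA 1.8.2, Bowtie, HOMER and the build hg19. Each peak list came from 1 library. The 4 input libraries were not analysed here on their own. Per the file headers, the authors called H3K27ac peaks against input at an FDR of 0.001, with at least 4-fold over input and over the surrounding 10 kb at Poisson p-values of at most 0.0001. They were 197 bp wide in the astromal and 175 bp in the stromal list. HOMER annotated the H3K9ac lists, per the file headers. The thresholds used to call them are not given in the sources used. Within a list all peaks have the same width, so the covered length of a gene follows its number of peaks.

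The main value was the deposited signal, tags per peak scaled by the authors to 10000000 tags. The H3K9ac signal rises in even steps worth 1 tag, all values lying within 0.1 tag of a whole number, which gave tags and an estimated depth. The deposited tag counts of H3K27ac peaks, the fold ratios over input and surroundings, the findPeaks score and the fraction of tags in focus are the authors' values and describe peaks within a list.

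H3K9ac peaks were taken by the gene name in the deposited annotation, and H3K27ac peaks by a centre within 2 kb. Ratios are stromal over astromal, centred on the median of all genes with peaks in both lists, and a gene was counted as past the fold at 2-fold. Intervals are exact (Clopper-Pearson for ratios, Poisson for levels, scipy 1.17.1) and cover counting error only. The median peak held 20 tags in the stromal and 9 in the astromal H3K9ac list, and 20 and 18 in the H3K27ac lists. TSS positions were rebuilt in hg19 from peak positions and their annotated distances. The ratio and call were tried on simulated Poisson tag sums with large changes put in. That trial did not model the cut-offs of the peak lists or the number of peaks per gene, so it does not cover their effect here.

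The 8 genes and the gene lists were chosen with earlier results of these data known. All 8 are named. Of the other lists, genes with peaks of a mark in 1 list or past 2-fold were eligible, at most the 4 with the most tags in each direction and mark. EHF and ITGB4 H3K27ac, SNAI1 and COL1A2 H3K27ac and genes with no row were named after their values were seen. A gene of the epithelial list is not reported here and was left out of its counts.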

Additional observations from a re-analysis of the deposited data

Results flagged for a closer look

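Near MUC1 and SOX9 H3K9ac peaks stood in the lists under the name of a neighbouring gene, outside the rows that carry the names of the 8 genes, and each held more than the 3 tags set as the floor of a count of 0. Beside MUC1 the stromal list had peaks of 37.0 (28 tags) and 26.4 normalised tags (20 tags) named for the microRNA gene MIR92B, and the astromal list had 1 of 28.0 (11 tags). Counted with them, MUC1 had 108.3 normalised tags in the stromal and 68.8 in the astromal library. Its centred log2 ratio was then −0.45, in place of −0.85 by name. Beside SOX9 the stromal list had a peak of 19.8 normalised tags (15 tags) named for SOX9-AS1.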

How the results depend on the processing

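Absence and presence in a list depended on how a gene's peaks were gathered. The number of genes with H3K9ac in the astromal list only was 1, became 3 with peaks within 1 kb of the TSS (CLDN4, ESRP2 and SOX9), and was 0 with peaks of at least 10 tags and 0 when peaks of any gene name within 2 kb counted, a setting chosen after seeing the data. With peaks within 1 kb of the TSS 2 genes were in both lists, in place of 4. With a common floor of 17.8 normalised tags KRT19 had H3K9ac in neither list, and with at least 10 tags SOX9 did, 1 gene each. For H3K27ac, asking for overlap with an H3K9ac peak left 2 genes in both lists and 3 in neither, with 1 stromal only (KRT19). At least 5-fold over the surrounding 10 kb gave 1 stromal only, 1 astromal only and 2 in neither. Calls of 2-fold also moved, from 0 genes in each direction. Counting H3K27ac within 1 kb put 2 genes, KRT8 and KRT19, at least 2-fold higher (background 5.64% of genes with H3K27ac in both lists). Both have H3K9ac in the stromal list only, so stromal sites set their windows, and these calls do not show a difference. At least 5-fold over the surroundings put 1 gene higher (KRT19, 1.34) and 1 lower (MUC1, −1.09). H3K9ac of any gene name within 2 kb put 2 genes, KRT18 (−1.05) and SOX9 (−1.14), at least 2-fold lower. The last 2 settings were applied to the ratios after seeing the data. Centres within 500 bp in place of overlap gave 10 shared stromal H3K27ac peaks. Of 76 recomputed counts, 59 stayed within 1.5 times of the main count and 17 did not. Many of the 59 were counts of 0 that stayed at 0, so the tally says little about the counts above 0. Scaling H3K9ac to tags in peaks cannot move a centred ratio. No paired analysis was possible because each group had 1 library, and for the same reason no replicate could be left out. Tag numbers of 7 to 45 per H3K9ac peak limit every ratio.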
